A study of Mus musculus with 12 samples.

Results

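N6-methyladenosine (m6A) peaks in the 5' untranslated region (5'UTR) were examined in hearts of young and aged mice. In MeRIP-seq, RNA fragments are enriched with an antibody against m6A, and a peak marks exon sequence covered more densely in the enriched RNA than in the input RNA of the same sample. A 5'UTR peak was a peak whose middle, counted along its exon blocks, lay in the 5'UTR more than 100 nt upstream of the start codon in spliced coordinates, on 1 transcript per gene, the one with the longest CDS in GENCODE M21 (GRCm38). The peak's p-value played no part in this choice. Of 41694 peaks in all, 34235 lay on such a transcript, and 487 of these (1.42%) were 5'UTR peaks, in 212 of the 7088 genes with a peak.

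The hearts came from male C57BL/6 mice with no treatment, 6 to 7 weeks old in the young group and 26 to 27 months old in the aged group. The 12 libraries were 6 immunoprecipitates and their 6 inputs, and every such pair had given 1 peak list, called a heart here, so n = 3 per age. The methods describe samples mixed from 3 hearts while the labels name single mice, so the number of animals behind a list is not settled, and p-values measure the spread between these lists. The lists held 4114 to 6505 peaks in young hearts and 7284 to 9367 in aged hearts, with a p-value per peak and no read counts, so depth is unknown and a region without a peak was not called, which does not show that it lacked m6A. Of 10 defining cardiomyocyte genes, 6 to 8 had a peak in each heart, and Mybpc3 had none in any heart. Whole heart also holds fibroblasts, endothelial cells and blood cells, and the cell that carried a peak cannot be told from these lists.

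The 5'UTR lies between the cap and the start codon and is scanned by the small ribosomal subunit before translation begins. Upstream ATG triplets in it can open short reading frames that lower translation of the main one. Most m6A of mammalian mRNA is placed by METTL3 and METTL14 in the sequence DRACH (D for A, G or T, R for A or G, H for A, C or T), with GGAC as a frequent core, and lies in long internal exons, near stop codons and in 3'UTRs. m6A in the 5'UTR is less common and has been linked to initiation of translation without the cap, for example on heat shock mRNAs. Antibodies against m6A also bind the dimethylated adenosine m6Am next to the cap, so that peaks at the very start of a transcript can hold either mark.

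To show the sequence on which the calls lay, the GGAC nearest to the middle of the region is given for the regions called in all hearts with the lowest p-value ranks and for those called in all 3 aged and in no young hearts. Each line gives 25 bases of the transcribed strand, 5' to 3', from the GRCm38 genome, with GGAC in capitals. A match marks these letters and not a measured methylated base. Of these 15 matches, 13 were followed by A, C or T and so were DRACH as well.
Timp3, chr10:86300640-86300664, plus strand: ttggctccgcGGACtcgtgttccag
Hand2, chr8:57321228-57321252, plus strand: tgaggagcgaGGACggacacgttcc
Ipo13, chr4:117914650-117914674, minus strand: ttgattcaagGGACagagctgtgac
Mef2a, chr7:67316939-67316963, minus strand: cggcagccctGGACtagaaggttaa
Rbm24, chr13:46418782-46418806, plus strand: ctggttacccGGACgatccggaagg
Nr1d1, chr11:98775109-98775133, minus strand: tcttcctttgGGACttttgcacccg
Prkd2, chr7:16843322-16843346, plus strand: ttgattccagGGACcctgccctacc
Arhgap21, chr2:20967650-20967674, minus strand: gcctggaagcGGACctcttctctct
Gpr22, chr12:31712254-31712278, minus strand: gcagaattatGGACactattgattg
Ddx17, chr15:79546479-79546503, minus strand: ggtttgagcgGGACcagacctcccg
Slc38a2, chr15:96699506-96699530, minus strand: taaaagaaaaGGACtccgtcactgt
Atp2b4, chr1:133753545-133753569, minus strand: tccacccagaGGACaccaatcatcg
Srgap2, chr1:131527240-131527264, minus strand: cttgggcctgGGACcggtcgcggca
Spg20, chr3:55112264-55112288, plus strand: gggcggggccGGACctagagggcgt
Erc1, chr6:119825167-119825191, minus strand: cttcaagattGGACagctgctggcc

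Peaks from any heart were merged into 1 region where they had 1 or more exon bases in common on a strand, and a 5'UTR region was one in which at least 50% of the peaks were 5'UTR peaks. There were 206 5'UTR regions among 15699, and they held 459 of the 487 peaks. The other 28 peaks lay in regions made up mostly of other peaks. Of the 206 regions, 93 were called in 1 heart, 43 in 2, 25 in 3, 13 in 4, 13 in 5 and 19 in all 6 hearts. The 19 regions were 9.22% of the 5'UTR regions, against 10.6% of all regions, and 11.5% of CDS regions and 10.4% of 3'UTR regions were called in all hearts.

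The 19 regions called in all hearts included genes of heart development, ion transport, contraction, RNA binding and the circadian clock. Their order rests on the rank of the p-value within each list, given as a percentile in which 0 is the lowest p-value of that heart. Timp3, Hand2 and Ipo13 were among those with a rank under 15 in every heart. In 12 of the 19 the rank was under 50 in every heart.

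Hand2 encodes a basic helix-loop-helix transcription factor that is needed for the right ventricle to form. Its region (GRCm38 chr8:57321013-57321370, plus strand) had a middle 730 nt upstream of the start codon, in the first exon, and only 194 nt from the transcript start. The rank was 4.91, 7.23 and 13.8 in young hearts and 2.33, 4.55 and 9.14 in aged hearts, so the ages overlapped. It held 8 DRACH and 3 GGAC matches, and 2 of the 5 upstream ATG triplets of the 924 nt 5'UTR lay in the called part. Hand2 also had 1 CDS peak in each of the 6 hearts. The antisense gene Hand2os1 overlaps the region on the other strand.

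Mef2a, a MADS-box transcription factor of muscle, was called in exon 3, 104 nt upstream of the start codon and near the limit of the definition. Only 4 of its 6 peaks were 5'UTR peaks. The rank was 11.1, 34.5 and 12.9 in young hearts and 3.10, 6.54 and 6.95 in aged hearts. Every aged value was lower than every young one.

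Among ion and solute transporters, Slc38a2 encodes the amino acid transporter SNAT2, which is induced by amino acid starvation. The rank was 45.6, 39.4 and 42.3 in young hearts and 16.0, 16.3 and 17.1 in aged hearts, so the aged values lay in a narrow band below the young values. The 410 nt 5'UTR held no upstream ATG. Kcnj2, the inward rectifier potassium channel Kir2.1 that sets the resting potential of cardiomyocytes, had a region across the first intron of its 5'UTR with ranks of 19.98, 37.0 and 76.3 in young and 83.6, 21.1 and 69.4 in aged hearts. The values ranged widely within each age, and the ages overlapped. Atp2b4, a calcium pump of the plasma membrane, was called in exon 2, with 5 of its 6 peaks counted as 5'UTR peaks. Its ranks ran from 14.2 to 73.7 in young hearts and from 30.9 to 39.1 in aged hearts.

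Timp3 encodes a matrix-bound inhibitor of metalloproteinases. Its ranks were 4.98, 2.81 and 11.1 in young hearts and 3.71, 3.54 and 3.90 in aged hearts, the lowest median of all 5'UTR regions at 3.80, and the ages overlapped. The region reached across an intron, 5 of its 8 peaks were 5'UTR peaks, and every heart had 3 to 5 further Timp3 peaks. These lay in the CDS, at the stop codon and mainly in the 3'UTR. Timp3 lies within Syn3, which is transcribed from the other strand.

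Of the RNA-binding proteins, Rbm24, a regulator of splicing in muscle, had ranks of 8.87, 4.70 and 14.6 in young hearts and 9.38, 14.5 and 26.2 in aged hearts. The values overlapped between the ages, and the region at chr13:46418613-46418852 held 5 GGAC matches and no upstream ATG. The RNA helicase gene Ddx17 was called with ranks of 20.5 to 27.4 in aged hearts and 22.2, 37.6 and 92.1 in young hearts. The high value is that of the third young heart, which had the shortest list.

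Regulators of the cytoskeleton were Rock1, a kinase that raises myosin contractility, with a median rank of 19.1, and Arhgap21, a GTPase-activating protein, with a median rank of 22.02. Rock1 had 2 to 5 CDS peaks beside the 5'UTR peak in every heart. Arhgap21 had 1 to 5 CDS peaks, and 4 of the 6 peaks of its region were 5'UTR peaks. The clock repressor gene Nr1d1 (REV-ERBα) had a median rank of 19.4 and a region that ran from the 5'UTR across an intron, with 4 of its 6 peaks counted as 5'UTR peaks. Ipo13, a nuclear transport receptor, had 5 GGAC and 11 DRACH matches in its called part.

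Gpr22, an orphan G protein-coupled receptor expressed in heart and brain, and Hopx, a small homeodomain protein without DNA binding that acts in cardiac development, were the only genes among the 19 with no other peak in any heart. Gpr22 had the longest 5'UTR of the 19, 1332 nt with 28 upstream ATG triplets, and its 8 peaks held 22 DRACH matches but only 1 GGAC. Its ranks were 24.4, 28.6 and 57.7 in young hearts and 10.9, 14.0 and 21.3 in aged hearts. Hopx was called 199 nt upstream of the start codon with ranks of 87.5, 58.3 and 67.0 in young hearts and 56.6, 27.7 and 55.2 in aged hearts. In both genes every aged value was lower than every young one.

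Rassf9, a member of the Ras association domain family, was the fifth region with this order, with ranks of 15.2, 32.2 and 23.7 in young and 8.01, 9.45 and 12.2 in aged hearts, and it held no GGAC in its called 5'UTR. The 5 regions with a lower rank in every aged heart (Gpr22, Hopx, Mef2a, Rassf9 and Slc38a2) stand beside a background of 19.9% of the 1663 regions called in all hearts. No 5'UTR region had the opposite order, against 0.902% of those 1663. The rank is relative to lists of different length, which were longer in every aged heart, and the part of list length in these orders was not tested.

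**Figure D1:**
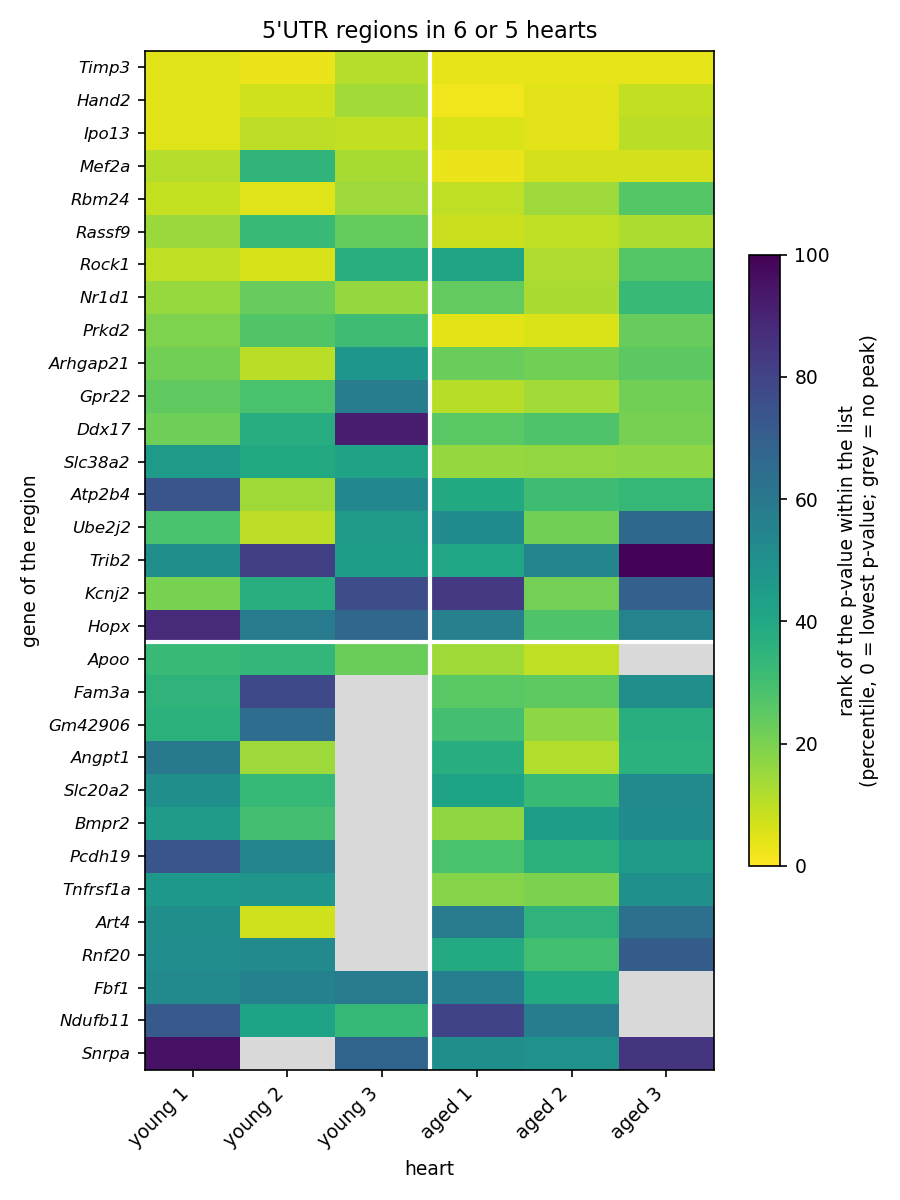
Rank of the p-value within each heart's list (colour, percentile, 0 is the lowest p-value) for the 5'UTR regions called in 6 hearts (above the horizontal white line, 18 of the 19 regions) or 5 hearts (below, 13 regions), by heart, with grey for no peak. Timp3, Hand2 and Ipo13 are under 15 in every heart. Of the 13 regions called in 5 hearts, 9 lack a peak in the third young heart, which had the shortest list.

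Among the 13 regions called in 5 hearts, 9 had no peak in the third young heart. A further 3 had none in the third aged heart and 1 had none in the second young heart. The third young heart had the shortest list, at 4114 peaks, and no share over all regions was set beside these counts. The genes included Angpt1, a ligand of the endothelial receptor Tie2, Bmpr2, a receptor of bone morphogenetic proteins, Tnfrsf1a, a receptor of tumour necrosis factor, Ndufb11, a subunit of respiratory complex I, and Apoo, a component of the mitochondrial cristae junction complex. Angpt1 had ranks of 59.6 and 14.5 in 2 young hearts and of 37.8, 11.4 and 36.1 in aged hearts. Apoo, called in all young hearts, had ranks of 32.4, 33.7 and 22.4 there and of 14.2 and 9.50 in 2 aged hearts. The region named Gm42906 spans 2 other genes on the same strand, Stard13 and D730045B01Rik, and its assignment to a gene is uncertain. In all, 14 of the 206 regions overlapped another gene on the same strand and 43 a gene on the other strand.

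Position within the 5'UTR was described over all 487 peaks. The middle lay 101 to 2224 nt upstream of the start codon, with a median of 205 nt and quartiles of 148 and 341 nt. There were 240 peaks (49.3%) at 101 to 200 nt, 110 at 201 to 300 nt, 61 at 301 to 500 nt and 76 (15.6%) farther upstream. The 5'UTRs that carried them had a median length of 516 nt. The middle lay in exon 1 in 360 peaks (73.9%), in exon 2 in 99 and in a later exon in 28. A total of 104 peaks (21.4%) began within 50 nt of the annotated transcript start and 31 (6.37%) reached into the coding sequence.

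The limit of 100 nt cuts through a continuous distribution. Just inside it lay peaks of Myl12a, Pnpla7 and Rasgrp3 at 101 nt and of Abca9 and Aff1 at 102 nt. Just outside it lay peaks of Pfkfb3, Cdc42ep3 and Bivm at 100 nt and of Zfp691 at 99 nt. There were 60 peaks from 101 to 120 nt and 78 from 81 to 100 nt upstream. On other coding transcripts of the same gene, 31 of the 487 peaks (6.37%) had their middle in the CDS or at the start codon.

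**Figure D2:**
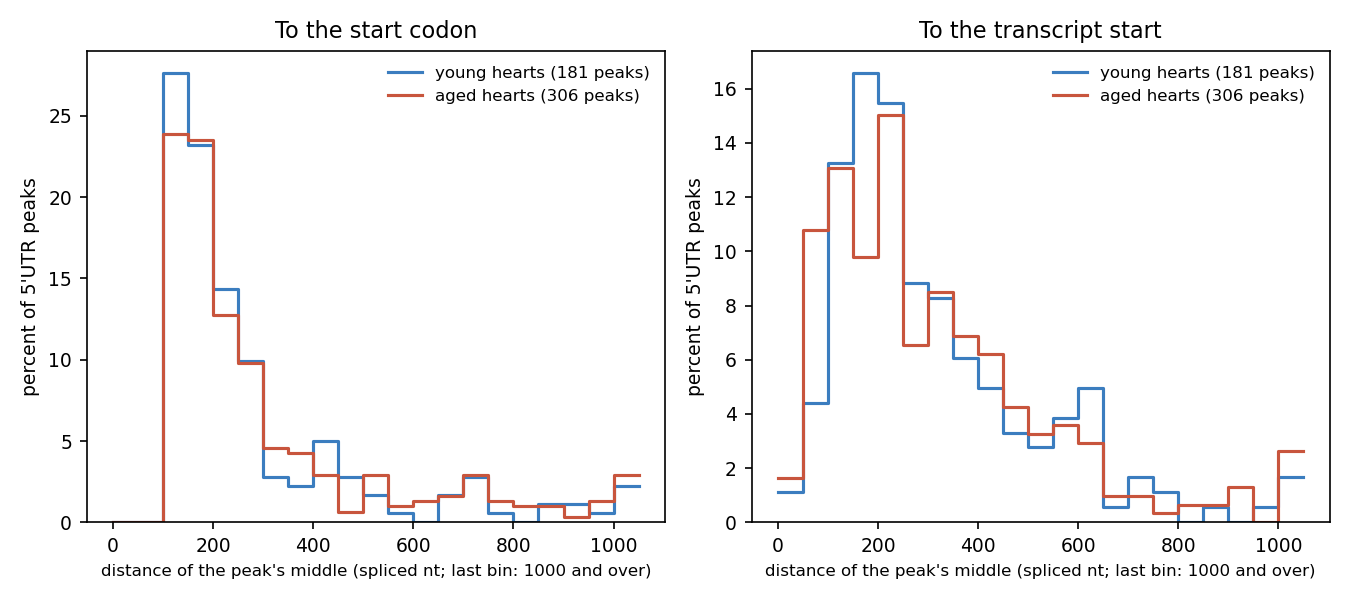
Distance of the middle of 5'UTR peaks from the start codon (left) and from the transcript start (right), in spliced nt in bins of 50 nt, as percent of the 181 peaks of young hearts (blue) and the 306 peaks of aged hearts (red). Nothing lies below 100 nt on the left because of the definition, and in both ages the highest bin is the first past that limit.

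Among the distant regions, all in long 5'UTRs, BC005537 was called 1229 nt and B430305J03Rik 1107 nt upstream of the start codon, in 2 aged hearts and 1 aged heart. Pcdh19, a protocadherin gene, was called in 2 young and 3 aged hearts 1348 nt upstream of the start codon in a 5'UTR of 1723 nt. Ddi1 was called in 2 aged hearts at 2224 nt in a 5'UTR of 3479 nt, and Ddi2, which encodes a related aspartic protease, was called in 1 young and 1 aged heart at 1098 nt. A pair of separate 5'UTR regions was found in 12 genes, among them Azin1, Prkd2, Slc20a2, Trib2 and Zbtb20, and no gene had more. In Trib2, a pseudokinase gene with a 5'UTR of 1285 nt, the region called in all hearts lay 242 nt upstream of the start codon, and the second, called in the 3 aged hearts alone, lay 660 nt upstream.

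The called part of the 5'UTR differed in sequence from the rest of the same 5'UTRs. The rest comprised the bases more than 100 nt upstream of the start codon that lay under no peak of that heart. DRACH was denser in the called part, at 20.3, 20.6 and 21.6 per kb in young hearts and 20.8, 20.4 and 20.2 per kb in aged hearts. The rest held 16.6, 15.6 and 15.4 per kb in young hearts and 16.7, 17.1 and 16.5 per kb in aged hearts. The called value exceeded the rest in 6 of 6 hearts with no overlap, by 4.36 ± 1.07 per kb (SD, n = 6), by an exact permutation test that flips the sign of each heart's difference (p = 0.03125, two-sided, which is the least that 6 hearts can give, and 0.03125 after adjustment over 4 measures).

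GGAC was denser in the called part as well, at 5.49 ± 0.422 per kb against 4.53 ± 0.291 per kb in the rest (SD, n = 6 hearts), higher in 6 of 6 hearts by 0.962 ± 0.384 per kb (exact sign-flip permutation test, p = 0.03125, adjusted 0.03125). GC content ran the other way, at 54.7% ± 0.713 in the called part and 58.3% ± 1.24 in the rest, and was lower in the called part in 6 of 6 hearts (same exact permutation test, p = 0.03125, adjusted 0.03125). The part with the denser motifs thus held fewer G and C.

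Upstream ATG triplets were slightly sparser in the called part, at 7.35 ± 0.806 per kb against 8.28 ± 0.736 per kb, lower in 6 of 6 hearts with a difference of -0.93 ± 0.819 per kb (exact sign-flip permutation test, p = 0.03125, adjusted 0.03125). This call was lost with peaks at a p-value of 1e-05 or less (difference -0.49 per kb, exact sign-flip p = 0.719). At equal list size the difference was -0.38 per kb (exact sign-flip p = 0.531), and on every coding transcript it was -0.30 per kb (p = 0.312). The 6 hearts share many of the same 5'UTRs, so these tests count the same sequences more than once. The called part of the regions in all 6 hearts held 7.26 GGAC per kb, that of regions in 2 to 5 hearts 4.31 and that of regions in 1 heart 6.40, without an order by recurrence.

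**Figure D3:**
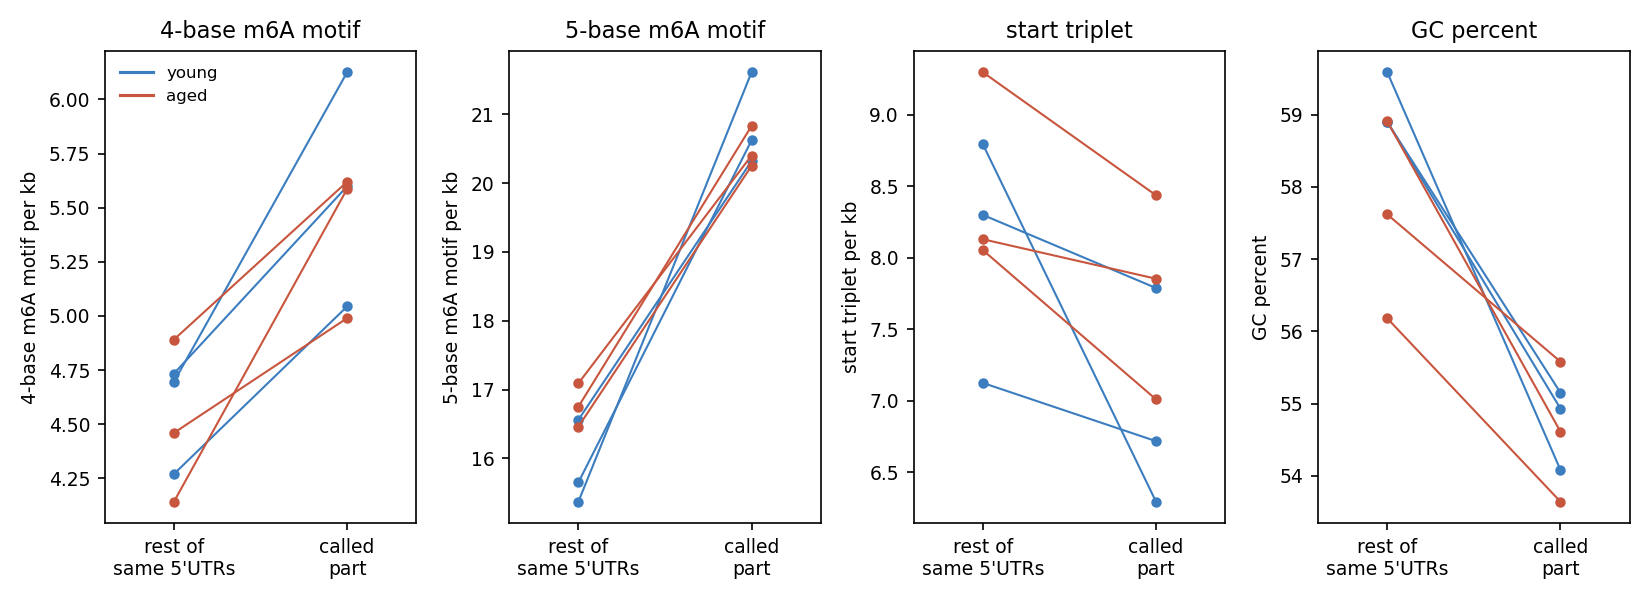
Motif density and GC percent in the rest and in the called part of the same 5'UTRs, 1 line per heart (young blue, aged red), with axes that do not start at 0. The 4-base motif is GGAC, the 5-base motif is DRACH and the start triplet is ATG, and GGAC and DRACH rise while ATG and GC percent fall from the rest to the called part in all 6 hearts.

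Against peaks in the CDS and in the 3'UTR of the same heart, 5'UTR peaks were richer in G and C and denser in GGAC. DRACH was not denser in them than in CDS peaks, as given below. GGAC reached 4.84, 5.20 and 5.60 per kb in young hearts and 4.89, 5.25 and 5.53 per kb in aged hearts. The mean was 5.22 ± 0.315 per kb in the 5'UTR, 4.53 ± 0.137 in the CDS and 3.40 ± 0.246 in the 3'UTR (SD, n = 6 hearts). Both differences had the same direction in 6 of 6 hearts (exact sign-flip permutation test, p = 0.03125 each, adjusted 0.0375 over 12 comparisons). With the middle in the 5'UTR on every coding transcript that holds it, the difference from the CDS was 0.382 per kb (exact sign-flip permutation p = 0.0625). GC content was 54.3% ± 0.479 in 5'UTR peaks, 49.2% ± 0.322 in CDS peaks and 45.3% ± 0.745 in 3'UTR peaks, again in the same order in every heart (same p-values), which is the order of GGAC density as well.

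The share of peaks with at least 1 GGAC was nonetheless close to that in the CDS, at 58.0% to 63.9% of 5'UTR peaks per heart against 59.9% to 63.8% of CDS peaks and 44.8% to 49.7% of 3'UTR peaks. DRACH went the other way from GGAC, at 19.7 to 20.6 per kb in 5'UTR peaks, below the 22.5 to 23.55 per kb of CDS peaks in every heart. In 3'UTR peaks it stood at 20.4 to 21.6 per kb, higher than in 5'UTR peaks in all but the first aged heart. ATG stood at 6.60 to 8.48 per kb in 5'UTR peaks. This was below the 17.8 to 18.3 per kb of CDS peaks and the 15.4 to 16.3 per kb of 3'UTR peaks in every heart. These ranges are descriptions without a test. An upstream ATG was present in the 5'UTR of 191 of the 212 genes (90.1%). No share over the other genes with a peak was set beside this value, so it does not set these genes apart.

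Peaks in the 5'UTR were short, at 203 ± 5.48 nt against 246 ± 11.1 nt in the CDS and 217 ± 5.17 nt in the 3'UTR (SD, n = 6), shorter in 6 of 6 hearts in both comparisons (exact sign-flip permutation test, p = 0.03125, adjusted 0.0375). They lay in 1 exon block in 73.9% ± 5.60 of cases, against 40.1% ± 4.12 in the CDS and 98.7% ± 0.299 in the 3'UTR (same p-values). The room that exons give in each feature differs. Their p-values ranked behind those of CDS peaks, with a median percentile of 55.3 ± 4.57 against 46.6 ± 0.474, higher in 6 of 6 hearts (p = 0.03125, adjusted 0.0375, by the exact sign-flip permutation test). The call was lost at equal list size (difference 4.49, exact sign-flip p = 0.0625). The difference in rank from 3'UTR peaks was -0.10 ± 3.63, higher in 3 of 6 hearts (exact sign-flip p = 0.969, adjusted 0.969), and it reversed to 3.52 (p = 0.03125) with peaks at a p-value of 1e-05 or less.

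Many genes with a 5'UTR peak had peaks elsewhere too. In 49.8% ± 13.3 of 5'UTR peaks (SD, n = 6 hearts) the gene had a peak in another feature of the same heart. The share was 21.8% ± 5.75 for CDS peaks, lower in 6 of 6 hearts (exact sign-flip permutation p = 0.03125, adjusted 0.0375), where the CDS itself, with the most peaks, does not count as another feature. It was 44.4% ± 9.63 for 3'UTR peaks, lower in 5 of 6 hearts (exact sign-flip permutation p = 0.156, adjusted 0.17). With peaks at a p-value of 1e-05 or less the difference from 3'UTR peaks passed the threshold, at 10.3 percentage points (exact sign-flip p = 0.03125).

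**Figure D4:**
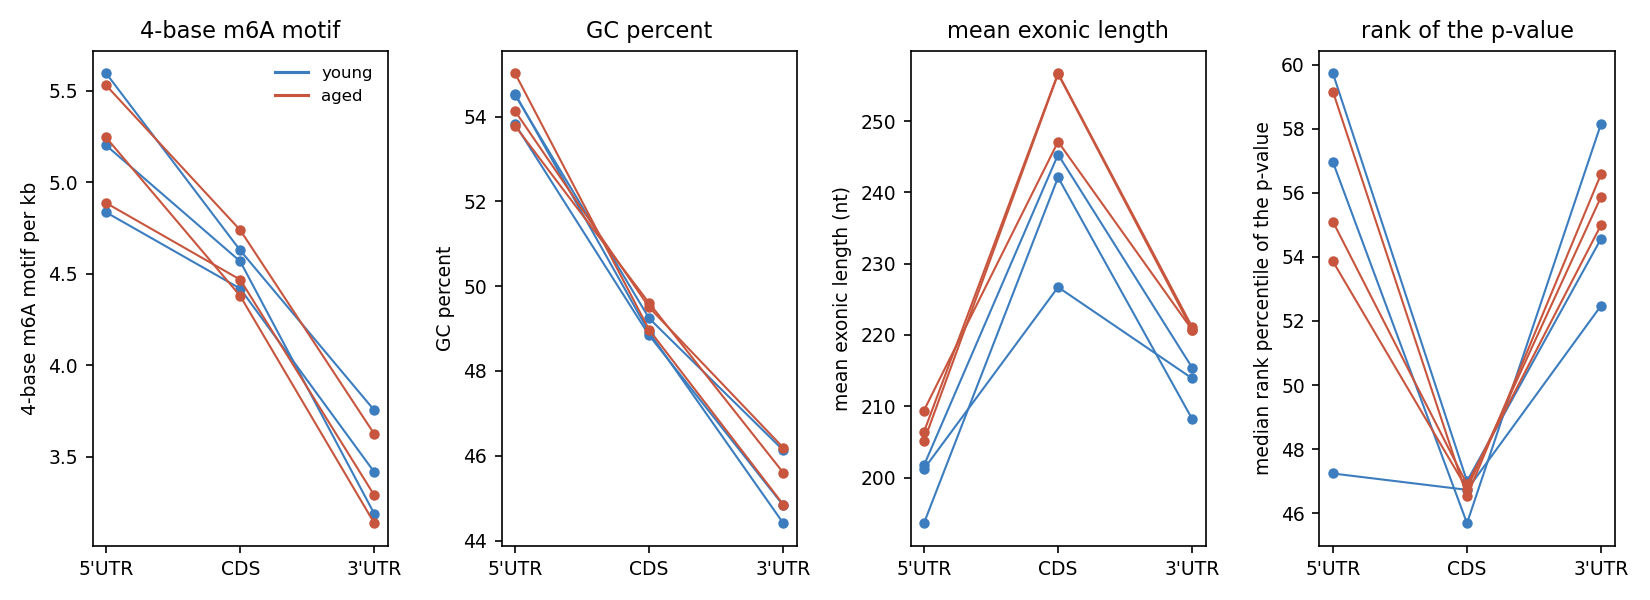
GGAC (4-base motif) per kb, GC percent, mean exonic length and median rank percentile of the p-value for peaks in the 5'UTR, CDS and 3'UTR, 1 line per heart (young blue, aged red), with axes that do not start at 0. The 5'UTR is highest for the motif and GC percent and shortest in all 6 hearts, and its rank varies most between hearts.

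A question of the study was how the distribution of m6A over transcript features differs with age. Young hearts had 81, 64 and 36 5'UTR peaks and aged hearts 112, 112 and 82. The lowest aged heart exceeded the highest young heart by 1 peak. The mean was 60.3 ± 22.7 in young and 102 ± 17.3 in aged hearts (SD, n = 3 per age), with p = 0.1 when all 20 ways to assign the hearts to ages were enumerated (exact permutation test, two-sided), the smallest p it can give (adjusted 0.275 over 11 measures). With every list cut to its 4114 best peaks the counts were 42, 55 and 36 in young and 41, 46 and 43 in aged hearts, and the difference turned to -1 (exact permutation p = 0.9). The full lists were longer in every aged than in every young heart.

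As a share of the peaks with a feature, 5'UTR peaks made up 1.499%, 1.48% and 1.04% in young hearts and 1.51%, 1.49% and 1.35% in aged hearts. The means of 1.34% ± 0.261 and 1.45% ± 0.0848 differed by less than the spread between hearts (exact permutation p = 0.6, adjusted 0.978). Without the third young heart the difference reversed to -0.04 percentage points. Neither the median distance from the start codon (201.5 ± 7.86 nt in young and 210.2 ± 15 nt in aged hearts, p = 0.7) nor that from the transcript start (255 ± 28.8 and 259 ± 27.6 nt, p = 0.8) separated the ages in the exact permutation test. GGAC density was 5.21 ± 0.380 and 5.22 ± 0.322 per kb (exact permutation p = 1) and GC content 54.3% ± 0.407 and 54.3% ± 0.639 (exact permutation p = 1). Upstream ATG stood at 7.14 ± 0.677 per kb in young and 8.14 ± 0.512 per kb in aged peaks (exact permutation p = 0.2, adjusted 0.44).

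Young and aged hearts were also apart in the number of genes with a 5'UTR peak, in peak length and in the share with a peak in another feature. For each the smallest possible p of 0.1 was reached (exact permutation test, adjusted 0.275). The genes numbered 79, 63 and 35 in young hearts and 109, 110 and 81 in aged hearts, and at equal list size this difference turned to -0.333. Peaks of young hearts were 201.7, 201.2 and 194 nt long on average and those of aged hearts 206, 209 and 205 nt. At equal list size the lengths overlapped, at 245, 204.7 and 193.6 nt in young and 259.7, 264 and 243.5 nt in aged hearts, and the difference grew from 8.14 to 41.3 nt (exact permutation p = 0.2). They overlapped with peaks at a p-value of 1e-05 or less as well (exact permutation p = 0.4), and with a limit of 200 nt the difference was 0.969 nt (exact permutation p = 0.9). The share of 5'UTR peaks whose gene had a peak in another feature of the same heart was 48.1%, 48.4% and 25% in young hearts and 60.7%, 58.0% and 58.5% in aged hearts. At equal list size these shares were 42.9%, 47.3% and 25% in young and 43.9%, 43.5% and 44.2% in aged hearts, which overlapped (exact permutation p = 0.7). In the full lists CDS and 3'UTR peaks were apart by age in length and in this share as well. CDS peaks were 226.7 to 245.3 nt long in young and 247.1 to 256.7 nt in aged hearts, with shares of 12.9% to 22.6% and 24.15% to 27.9%. Peaks in the 3'UTR were 208.2 to 215.4 and 220.7 to 221.1 nt long, with shares of 31.1% to 44.4% and 47.5% to 55.5%. A start codon peak in the same gene was found for 0% to 6.25% of 5'UTR peaks in young hearts and 4.88% to 8.04% in aged hearts. No background share was set beside these values.

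**Figure D5:**
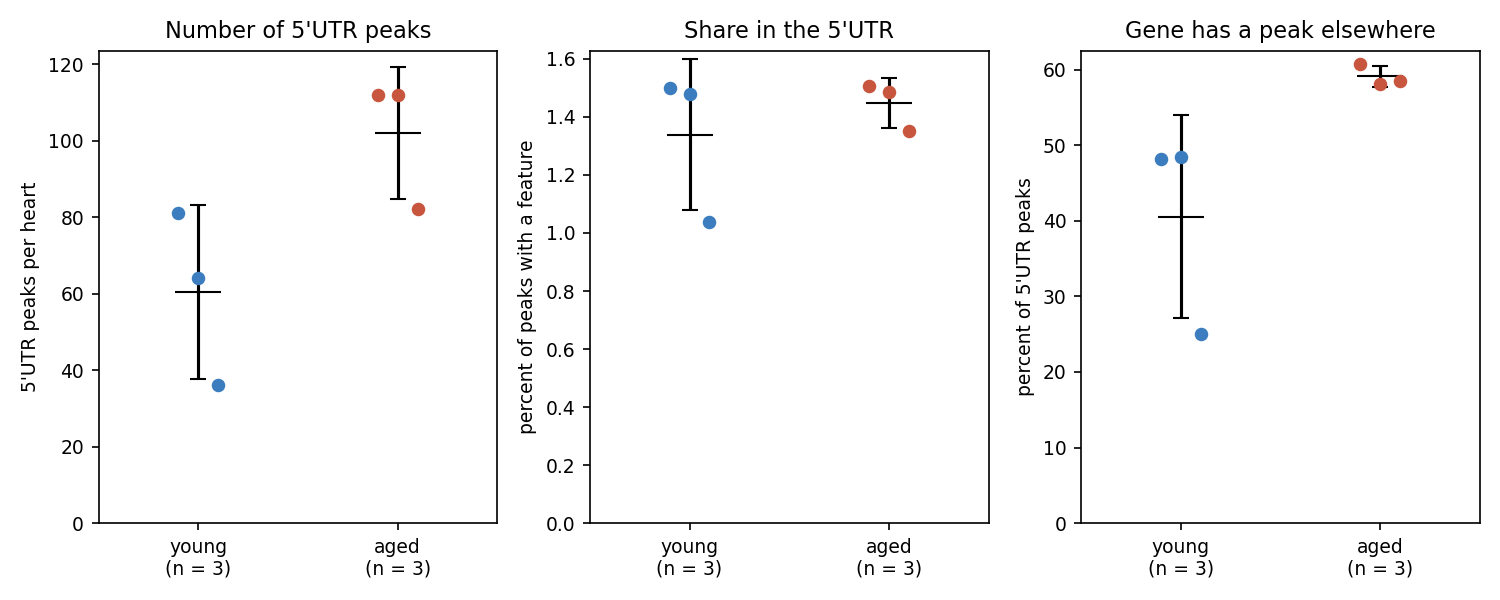
Number of 5'UTR peaks (left), their percent among peaks with a feature (middle) and the percent of 5'UTR peaks whose gene has a peak in another feature of the same heart (right), 1 point per heart with mean and SD, n = 3 per age, axes from 0. The ages do not overlap on the left and on the right and overlap in the middle.

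By age, 79 of the 206 regions (38.3%) had a peak in both ages, against 44.4% of all regions. Peaks of aged hearts alone made up 95 regions (46.1%, against 41.7% of all regions) and peaks of young hearts alone 32 (15.5%, against 13.9%). Of the 93 regions called in 1 heart, 63 came from aged hearts (67.7%), against 70.2% of all 6731 regions called in 1 heart, and 30 from young hearts (32.3%, against 29.8%). In 6 regions all 3 aged hearts and no young heart had a peak (2.91%, against 2.68% of all regions), and in none did the reverse hold (0.0446% of all regions). At least 2 aged and no young hearts had a peak in 32 regions (15.5%, against 11.7%), and at least 2 young and no aged hearts in 2 regions (0.971%, against 1.11%). At equal list size these counts were 0, 0, 6 and 4 among 104 5'UTR regions, and no share over all regions was set beside them.

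The 6 regions of aged hearts alone lay in Srgap2, Spg20, Erc1, Msmp, 1700029J07Rik and Trib2. Srgap2, a GTPase-activating protein of Rac signalling, was called 514 nt upstream of the start codon with ranks of 79.0, 45.4 and 45.3 in the 3 aged hearts. Spg20, which encodes spartin, a protein of lipid droplets and endosomes, was called 251 nt upstream with ranks of 53.6, 60.4 and 33.6. Its peak lay close to the transcript start, with the middle at 77 nt, and the gene had 1 or 2 other peaks in every young heart. Erc1, a scaffold gene of vesicle docking, had ranks of 72.6, 80.98 and 47.1 in the 3 aged hearts and had 3 to 5 CDS peaks in each of the 6 hearts. Its region lay 109 nt upstream of the start codon, and 2 of its 3 peaks were 5'UTR peaks.

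Msmp, a gene for a small secreted protein, had a peak of 120 nt with the middle 59 nt from the transcript start and ranks of 65.9, 27.5 and 55.3. The second Trib2 region ranked 49.4, 88.9 and 76.2, and 1700029J07Rik ranked 33.3, 49.2 and 94.8. Neither Msmp nor 1700029J07Rik had another peak in any heart. The 6 regions had a median rank of 54.5, behind the 21.2 of the 19 regions called in all hearts. A GGAC was held by 3 of the 6 and by 18 of the 19, against 118 of all 206 5'UTR regions (57.3%). Peaks had a median length of 194.5 nt in the 6 regions and 240 nt in the 19. Per kb, GGAC stood at 5.90 and 7.26. At equal list size none of the 104 5'UTR regions was called in all aged and no young hearts, without a share over all regions beside it.

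Of the regions in at least 2 aged and no young hearts, those with the best weakest rank lay in BC005537, Bnip2, Sparcl1, Cd36 and Telo2. Cd36 encodes the main fatty acid transporter of cardiomyocytes, and its region ranked 7.81 in the second and 52.0 in the third aged heart. Its peaks reached across 3 exon blocks in a 5'UTR of 320 nt. Sparcl1, a matrix protein of vessels, ranked 46.5 and 41.4. The BC005537 region ranked 26.1 and 19.1 and lay 135 nt upstream of the start codon in a 5'UTR of 1724 nt. Only 1 of its 2 peaks was a 5'UTR peak. The separate BC005537 region at 1229 nt, named above, ranked 77.8 and 77.2 in 2 aged hearts. Bnip2, a BCL2-interacting protein gene, ranked 31.0 and 40.9. Telo2, a component of the TTT complex that stabilizes kinases, ranked 54.2 and 41.9.

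In the other direction only 2 regions were found. Ivns1abp, a kelch protein gene, ranked 23.4 and 36.4 in the first and second young hearts, and all 6 upstream ATG triplets of its 5'UTR lay in the called part. Limd1, a LIM domain scaffold gene, ranked 68.9 and 65.9 in the first and the third young hearts, but only 1 of its 2 peaks was a 5'UTR peak. With all regions above, a missing peak is a missing call, and no difference in m6A level between ages was measured.

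Gene lists of cardiac biology were read against the 4706 genes that had any peak and more than 100 nt of 5'UTR, of which 2.36% had a 5'UTR region in at least 2 hearts. Of 32 such transcription factors of heart and stress, 3 did (9.38%), namely Hand2, Mef2a and Jun, and of 33 splicing and RNA-binding genes 3 did (9.09%), namely Rbm24, Ddx17 and Mbnl2. Jun, a subunit of AP-1, was called in 2 aged hearts 579 nt upstream of the start codon with ranks of 69.7 and 54.2, and the antisense gene Junos overlaps it. Mbnl2, a splicing regulator, was called in 1 young heart at 75.3 and in aged hearts at 29.6, 49.1 and 16.3. Only 2 of its 4 peaks were 5'UTR peaks.

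Kcnj2 was the 1 gene of 20 in calcium handling and ion channels (5%), and Timp3 the 1 of 28 in extracellular matrix (3.57%). No gene had a 5'UTR region in at least 2 hearts among 12 m6A writers, erasers and readers, 20 sarcomere genes, 22 heat shock genes and chaperones, 24 genes of translation initiation and upstream reading frames, 19 of insulin, PI3K, AKT and mTOR signalling, 33 chromatin modifying enzymes and 9 cardiomyocyte defining markers. At the background share, lists of this size would hold few such genes. Calls in 1 heart were found for Kcnd2, for Kdm5a and for Azin1, the antizyme inhibitor gene whose translation depends on an upstream reading frame, which had 1 region in a young and another in an aged heart, with ranks of 89.5 and 97.7.

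Efemp1, the gene followed up in the study, and Gfpt1, a gene the study lists, had no 5'UTR peak under the definition used here. The study's annotation places the Efemp1 peak and the Gfpt1 start codon peak in the 5'UTR, so the definitions differ. The Efemp1 peaks of the first and second aged hearts had their middle 20 nt past the first base of the start codon, in a transcript with a 5'UTR of 130 nt. Gfpt1 had a start codon peak in the second aged heart, 18 nt upstream, and a CDS peak in the first.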

How the data were processed

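The authors aligned reads to GRCm38 with HISAT2 (2.1.0) and ran exomePeak on each heart, keeping peaks with a p-value up to 0.05 at a fragment length of 200 and setting no limit on the false discovery rate. The deposited lists, 1 per heart, hold each peak's position, exon blocks, gene and p-value. RNA had been cut to 100 to 200 nt. The deposited p-value is unadjusted and is the only measurement, no normalization between hearts is part of it, and it served here only to order peaks of 1 heart or to drop weak ones. Depth is unknown, and the length of a list can depend on it.

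Of 7088 gene identifiers, 7081 were found in GENCODE M21. Ties for the longest coding sequence went to the longest transcript. Of the 212 transcripts with a 5'UTR peak, 211 read ATG at the annotated start codon of the genome used. Motifs were searched on the transcribed strand, placed in the called part or the rest by their A, and divided by the bases there. Positions are counted from 1.

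Tests used 1 value for each heart. Ages were compared by two-sided exact permutation over 20 assignments, and features or parts of the 5'UTR by two-sided exact sign flips over 6 hearts, with Benjamini-Hochberg adjustment over 11, 12 and 4 measures. The members, the gene lists and the tests were chosen with earlier results of these data known. Named regions are the first 15 in all hearts by median rank, those in 3 hearts of one age and none of the other, the first 5 per direction in at least 2 hearts of one age and none of the other by their weakest rank, members of the gene lists in at least 2 hearts, Efemp1 and Gfpt1. Of these, 1 region is not reported here. The other regions were named after their values were seen. The alternatives were a p-value of 1e-05, equal list size, 50 and 200 nt in place of 100, other transcripts, any overlap, 50% of the shorter peak to join peaks, every peak of a region in the 5'UTR, each heart left out and a replicate block. The assignment was tested on simulated data, where 1000 of 1000 peaks planted in 5 features and 120 of 120 planted regions were recovered. Software was samtools 1.23.1 and Python 3.11.15 with pysam 0.24.0, matplotlib 3.10.9, scipy 1.17.1 and numpy 2.4.6.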

Additional observations from a re-analysis of the deposited data

How the results depend on the processing

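Differences are aged minus young or 5'UTR minus the other unless said otherwise. Equal list size turned the age difference to -1 for the number of 5'UTR peaks, -0.0293 percentage points for their share, -0.333 for the number of genes, -6.17 nt for the distance from the start codon, -0.131 per kb for GGAC, 2.18 points for the share with GGAC and -0.839 points for GC content. No age difference can pass 0.05 with 3 hearts per age, so none was a call. The distance from the transcript start turned to -10.5 nt with p-values of 1e-05 or less, -26.7 nt with 50 nt, -14.3 nt with 200 nt, -20.5 nt on every coding transcript and -12.2 nt on any. GGAC per kb turned to -0.148 with p-values of 1e-05 or less, -0.682 with 200 nt, -0.304 on every and -0.320 on any coding transcript. The share with GGAC turned to 0.562 points with p-values of 1e-05 or less and 2.09 points with 50 nt, GC content to -0.566 points with 50 nt and -0.318 points with 200 nt, and upstream ATG to -0.329 per kb with 200 nt. The causes were not tested.

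With p-values of 1e-05 or less, the rank against 3'UTR peaks turned to 3.52, the share with a peak in another feature against 3'UTR peaks passed the threshold at 10.3 points, and ATG in the called part was lost at -0.493 per kb. Equal list size gave 4.49 for the rank against CDS peaks (lost), 2.12 against 3'UTR peaks (turned) and -0.384 per kb for ATG (lost). On every coding transcript GGAC against CDS peaks was lost at 0.382 per kb and ATG at -0.301 per kb, the rank against 3'UTR peaks turned to 0.698, and the share against 3'UTR peaks passed at 10.2 points. Region counts were 100 in all, 15 in at least 2 aged and no young hearts and 1 in the reverse with p-values of 1e-05 or less. At equal list size there were 104 regions, 0 in all aged and no young hearts, 6 in at least 2 aged and no young hearts and 4 in the reverse. On every coding transcript that holds the middle, the set grew to 309 regions. The transcript with the longest coding sequence need not hold these peaks. Of the 309 regions, 30 were called in all hearts and 4 in at least 2 young and no aged hearts. With every peak of a region in the 5'UTR these counts were 12 and 1.

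With 1 heart left out, 5 hearts allow no p below 0.0625, so each call by sign flips is lost by construction. Over these omissions the differences from CDS peaks ran from 0.626 to 0.736 for GGAC per kb, 4.94 to 5.31 points for GC content, -46.3 to -41.1 nt for length, 32.6 to 35.2 points for 1 exon block, 7.94 to 10.4 for rank and 26.7 to 31.2 points for a peak in another feature. From 3'UTR peaks they ran from 1.76 to 1.89, 8.72 to 9.17, -14.2 to -13.4, -26.8 to -23.7, and -1.16 to 0.923 for rank. Called minus rest ran from 0.866 to 1.05 for GGAC, 3.98 to 4.57 for DRACH, -1.06 to -0.620 for ATG and -4.02 to -3.32 for GC content. Age differences ran from -0.0420 to 0.189 points for the share of 5'UTR peaks, -11.9 to 18.6 nt for the distance from the transcript start, -0.178 to 0.202 for GGAC per kb, -2.80 to 0.133 points for the share with GGAC and -0.340 to 0.279 points for GC content. The age difference in the number of 5'UTR peaks was 29.5 without the third young heart and that in the share with a peak in another feature 10.8 points. Leaving out a heart loosens the condition of all aged and no young hearts, so that count can rise by construction. It ran from 7 to 20 (highest without the third aged heart), against 6 with all hearts. The reverse ran from 0 to 1 (1 without the second or the third young heart). Regions in at least 2 aged and no young hearts ran from 11 (without the first aged heart) to 43. Those in at least 2 young and no aged hearts ran from 0 (without the first young heart) to 6 (without the first aged heart).

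As a replicate block, the shared numbers gave the same difference of 41.7 peaks (exact sign flips of 3 pairs, p = 0.25, the smallest possible), and no direction changed with the block. Whether the numbers pair the hearts was not settled. The correlations of same-numbered deviations in calls over all regions were -0.00177, 0.0478 and 0.0265, and those of other numbers ran from -0.0417 to 0.0175. The second and the third young hearts correlated best with the aged heart of the same number, and the first young heart with the third aged one. Joining peaks by 50% of the shorter one left every region count within 1.5 times. Counting any overlap with the 5'UTR kept the direction but raised the age difference from 41.7 to 110.7 peaks and from 0.109 to 0.409 points of share, while any coding transcript gave 83.3 peaks, every coding transcript 65.7, 200 nt 24.3 and p-values of 1e-05 or less 20.7. Over the same 4 settings the difference in the number of genes lay between 20.3 and 77, and the share difference was 0.0399 points with p-values of 1e-05 or less and 0.202 points on every coding transcript. The age difference in the share with a peak in another feature fell from 18.6 to 7.10 points with p-values of 1e-05 or less, to 5.48 at equal list size and to 11.8 on every coding transcript, and that in length moved from 8.14 to 41.3, 14.4 and 0.969 nt at equal list size, with p-values of 1e-05 or less and with 200 nt. Without depth, a missing call cannot be told from too few reads.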

Other observations

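A larger set of peaks lay in the 5'UTR only on a coding transcript other than the one with the longest coding sequence. There were 497 such peaks, of which 286 did not lie on the transcript with the longest coding sequence at all, 156 lay in its CDS and 55 at its start codon. Together with the 487 peaks described above, 984 peaks lay in the 5'UTR of some coding transcript. Which transcript the heart expresses was not measured in the lists.

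Of these peaks, 20 regions were called in all 6 hearts, and several lay in genes of heart muscle. The region of Pln, which encodes phospholamban, the inhibitor of the calcium pump of the sarcoplasmic reticulum, had a median rank of 11.1 and a middle 198 nt upstream of the start codon of another transcript. Sorbs2, an adaptor gene of the Z-disc and intercalated disc, had a median rank of 2.15, and Tacc2, a coiled-coil protein gene with 13 coding transcripts, one of 3.08. Mbnl1, a splicing regulator related to Mbnl2, had a median rank of 10.6, and Eif4g1, the scaffold of the cap-binding complex, one of 6.77. On the transcript with the longest coding sequence, 6 Tacc2 and 4 Eif4g1 peaks lay in the CDS and 4 Sorbs2 peaks at the start codon. The 7 peaks of Pln and 6 of Mbnl1 lay outside that transcript. The peroxiredoxin genes Prdx1 and Prdx2, which reduce peroxides, had median ranks of 22.9 and 23.7, with all 6 peaks of each outside the transcript with the longest coding sequence.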
